A study of Urocitellus parryii with 44 samples.

Results

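The genes described here carry the adrenergic signal inside brown adipocytes: adrenergic receptors, adenylyl cyclases, subunits of protein kinase A, phosphodiesterases, A-kinase anchoring proteins and the CREB family of transcription factors. They were found by gene symbol alone, as every cDNA probe whose single symbol begins with Adcy, Adra, Adrb, Prkar, Prkac, Akap, Creb or Pde and a digit, or reads Gnas or Crem. The rule gave 115 of 38400 probes, for 48 of 11626 genes counted without regard to case. The study compared brown fat of 5 arctic ground squirrels (Urocitellus parryii) in winter torpor with that of 3 squirrels that were summer active, taken in August. Total RNA labelled with 33P was hybridised to 4 mouse cDNA membranes called MA07, MA08, MA10 and MA11, which hold 28, 27, 25 and 35 of the member probes. The RNA of torpid animal 5 and of summer animals 1 and 2 was split and measured as duplicates, which were averaged to 1 value per animal. The labels give no age, sex, housing temperature or phase within the torpor bout, and season and activity state change together, so the comparison does not separate them.

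In brown fat, noradrenaline from sympathetic nerves acts on adrenergic receptors, and the beta-adrenergic type couples through the stimulatory G protein to adenylyl cyclase, which makes cyclic AMP. Cyclic AMP releases the catalytic subunits of protein kinase A from its regulatory subunits, and the kinase drives lipolysis and, through CREB and related factors, the transcription of thermogenic genes. Phosphodiesterases end the signal by hydrolysing cyclic AMP, and anchoring proteins hold the kinase near its substrates.

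Adcy3, a membrane adenylyl cyclase, was the one gene of this pathway with a probe past the threshold, and it was higher in torpor. Its MA08 probe rose 3.21-fold and its MA07 probe, of a different clone, was 3.37-fold higher without passing. Prkar2b, the regulatory subunit of protein kinase A that predominates in adipose tissue, was 2.86-fold higher by its brighter probe, which did not pass. Of the 112 tested member probes 82 (73.2%) differed by less than 0.5 on the log2 scale, against 76.2% of all tested probes, and the member median was 0.07. The top of the pathway is represented here by Adra1b and by the receptor for the peptide PACAP.

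All levels below are log2 of spot intensity over the median of the column, so that 0 is the median spot of the membrane and 1 unit is a doubling. Differences are torpor minus summer, with the standard error from limma. Levels can be set against each other within a probe only, since brightness depends on the clone as well as on the transcript, and since mouse probes may bind squirrel RNA unequally. Of the 115 member probes 112 were measured in enough animals to be tested, 2 or more per group, and 99 had values in all 8 animals. The 3 untested probes were dim spots of MA10. That of Adcy5 had no value in any animal, that of Adcyap1r1 had values in 2 torpid animals and 1 summer animal, and that of Adcy7 had a value in 0 torpid animals and 1 summer animal.

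By limma 1 of the 112 tested member probes passed an adjusted p of 0.05 over all probes, which is 0.893%, where 0.309% of the 37848 tested probes of the series passed. At an unadjusted p under 0.05, 13 member probes (11.6%) were higher in torpor, against 6.39% of all tested probes, and 2 (1.79%) were lower, against 5.18%. Every torpid animal lay above every summer animal in 7 member probes (6.25%, against 4.37% of all tested probes) and below every summer animal in 3 (2.68%, against 4.13%). Positive differences were found in 66 member probes, or 58.9%, and negative ones in 46, while 50.0% of all tested probes were positive. Member differences ran from -1.11 to 1.75, with 7 beyond 1 in either direction, and their median standard error was 0.28. The counts of lower probes rest partly on MA11: without that membrane 0 members were lower at an unadjusted p under 0.05, 8 were higher, and 1 had every torpid animal below every summer animal. The matching shares of all probes without MA11 are not given here.

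**Figure D1:**
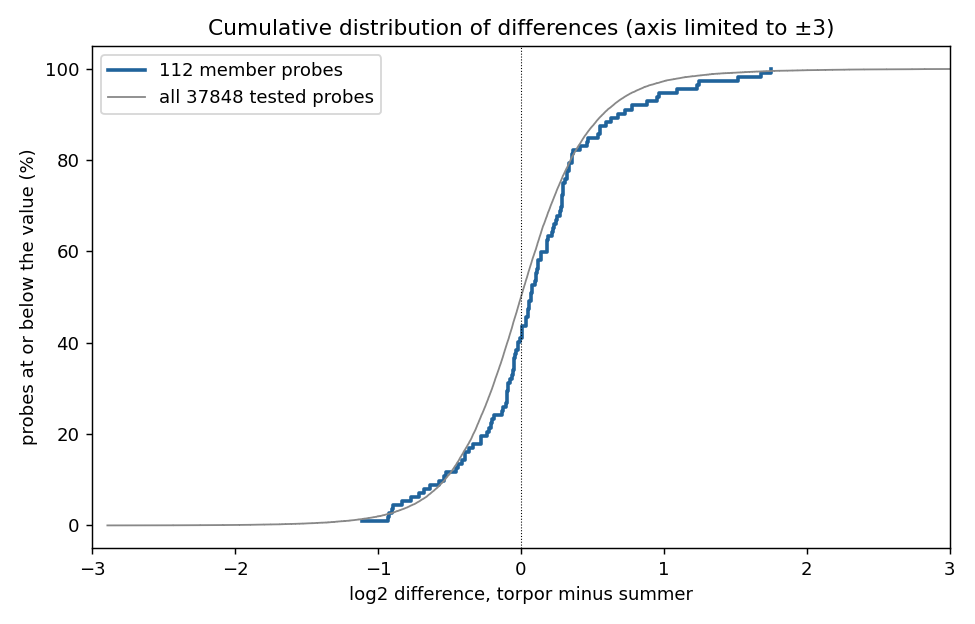
Cumulative share of probes (y axis, %) at or below each log2 difference, torpor minus summer (x axis), for the 112 tested member probes in blue and all 37848 tested probes in grey. The member curve lies to the right of the grey curve around 0 and again among the larger positive differences. The member median is 0.07, and by unadjusted p under 0.05 there are 13 member probes higher in torpor and 2 lower.

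Across animals the members as a whole moved little. The median deviation of the member probes from each probe's mean over groups was 0.06, 0.10, 0.05, 0.01 and 0.02 in torpid animals 1 to 5, against -0.08, -0.01 and -0.04 in summer animals 1 to 3. The groups did not overlap, but torpid animal 4 and summer animal 2 were close, at 0.015 and -0.014. The pooled standard deviation within groups was 0.034. Such medians are not given here for all probes or for other sets of probes. With a floor at the 10th percentile the median difference of the member probes was 0.0054.

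The receptors and ligand gave no difference past the threshold. Adra1b, the alpha-1B adrenergic receptor, was spotted from 1 clone on MA08 and MA11, and its differences were -0.05 ± 0.20 and 0.11 ± 0.23 (SE). The 95% interval of its MA08 probe ran from -0.49 to 0.39. On MA08 the level was 0.67, 0.84, 0.46, 0.32 and 0.62 in torpid animals and 0.49, 0.59 and 0.81 in summer animals, and the groups overlapped. Adcyap1, which encodes PACAP, gave 0.36 ± 0.50, and the tested probe of its receptor gene Adcyap1r1 gave 0.41 ± 0.21. Of the 40 pathway genes listed by name 28 had a tested probe, and the others are not analysed here.

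Among the adenylyl cyclases, the enzymes that make cyclic AMP, the 2 probes of Adcy3 stood apart from the 8 tested probes of the other 5 genes. On MA08 (probe 5599) Adcy3 had levels of 3.67, 3.04, 3.34, 3.09 and 3.15 in torpid animals 1 to 5, against 1.64, 0.91 and 2.18 in summer animals 1 to 3. The lowest torpid animal lay above the highest summer animal. The mean was 3.26 ± 0.26 (SD, n = 5) in torpor and 1.58 ± 0.64 (SD, n = 3) in summer, a difference of 1.68 ± 0.28 (SE) with a limma adjusted p of 0.040.

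The second Adcy3 probe, on MA07 (probe 4615), had levels of 2.86, 1.85, 1.94, 2.50 and 2.79 in torpid animals, against 0.23, 0.18 and 1.49 in summer animals. Here too the groups did not overlap, with summer animal 3 nearest to the torpid animals. The difference was 1.75 ± 0.35 (SE), with an unadjusted p of 0.00054 and an adjusted p of 0.086 by limma. The clones of the probes differ, so the measurements share the RNA of the 8 animals but neither the spot nor the membrane.

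Duplicate columns show the technical spread of these spots. On MA08 the split RNA of torpid animal 5 gave 3.27 and 3.04, while that of summer animal 1 gave 1.18 and 2.10 and that of summer animal 2 gave 1.41 and 0.41. On MA07 the pairs were 3.11 and 2.47 for torpid animal 5, 0.33 and 0.14 for summer animal 1, and 0.40 and -0.04 for summer animal 2. Each single column of a torpid animal thus exceeded each single column of a summer animal on both membranes. Of the 10 probes within 5 index positions of each Adcy3 probe, none passed the threshold, and their differences ran from -0.88 to 0.12 on MA08 and from -0.24 to 0.31 on MA07.

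The call of Adcy3 is close to the threshold. Over 19 alternatives the MA08 difference stayed between 1.35 and 1.98 and passed in 9, with adjusted p from 0.013 to 0.15 by limma. The MA07 difference stayed between 1.53 and 2.18 and passed in 2, with adjusted p from 0.014 to 0.36. When 1 animal was left out, the MA08 probe passed without summer animal 1 (adjusted p = 0.048) and without summer animal 3 (adjusted p = 0.016). It did not pass without summer animal 2 (1.35, adjusted p = 0.056) or without any one of the 5 torpid animals (1.58 to 1.74, adjusted p from 0.068 to 0.098).

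**Figure D2:**
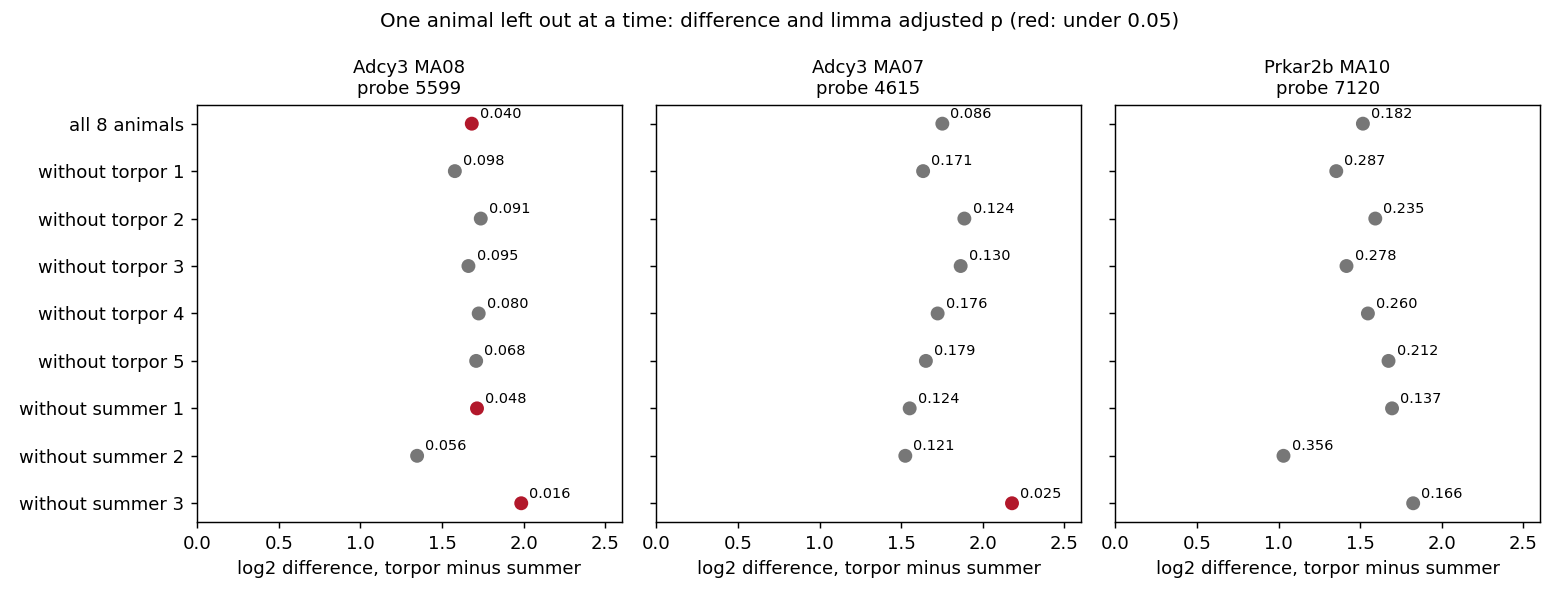
Log2 difference, torpor minus summer (x axis), for both Adcy3 probes and the brighter Prkar2b probe with all 8 animals and with each animal left out (y axis), the limma adjusted p printed beside each point and red marking values under 0.05. The Adcy3 differences lie between 1.35 and 2.18 in every fit drawn, and those of Prkar2b between 1.03 and 1.82, while the adjusted p of Adcy3 on MA08 crosses the threshold when a torpid animal is left out.

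The other cyclases lay closer to 0. Adcy6, a calcium-inhibited cyclase, gave 0.01 ± 0.35, and the widely expressed Adcy9 gave -0.10 ± 0.19. Adcy5, the closest relative of Adcy6, had 4 tested probes, at 0.47 ± 0.23, 0.04 ± 0.26, 0.25 ± 0.27 and -0.93 ± 0.97, the last from a dim spot with 1 value missing. Adcy1, a calmodulin-stimulated cyclase best known from neurons, gave 0.29 ± 0.21, and Adcy7 gave -0.41 ± 0.22. In none of these probes were the groups free of overlap.

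Protein kinase A is built of regulatory and catalytic subunits, and 17 probes of its 6 genes had a median difference of 0.21, of which 4 (23.5%) were higher and 0 lower by unadjusted p under 0.05, against 6.39% and 5.18% of all tested probes. Prkar2b, the type II beta regulatory subunit, had levels of 4.35, 3.39, 4.10, 3.57 and 3.07 in torpid animals, against 2.54, 1.21 and 2.80 in summer animals, on MA10 (probe 7120). The groups did not overlap, and torpid animal 5 lay 0.27 above summer animal 3. The difference was 1.52 ± 0.44 (SE, adjusted p = 0.18 by limma). A second Prkar2b clone on MA10 (probe 6897) gave 0.96 ± 0.43, with levels of 1.08, 0.17, 0.98, 1.16 and 0.48 in torpid animals and -0.27, -1.02 and 0.72 in summer animals, which overlapped.

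Both Prkar2b probes were measured with wide technical spread in summer. The duplicates of summer animal 2 were -0.45 and 2.86 on probe 7120, a gap of 3.31, and -2.29 and 0.26 on probe 6897. Those of summer animal 1 on probe 7120 were 1.72 and 3.36, the higher of which exceeded torpid animal 5. With the first duplicates alone the probe 7120 difference was 2.39, and with the second alone it was 0.64. MA10 had the widest duplicate gaps of the membranes, with a median gap over its member probes of 0.59, against 0.24 on MA07, 0.42 on MA08 and 0.28 on MA11.

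The other regulatory subunits did not give one direction. Prkar1a, the widely expressed type I alpha subunit, had 6 probes between -0.21 and 0.88. The highest and the 0.30 ± 0.28 of MA08 came from the same clone, spotted on MA11 and MA08. Prkar2a gave -0.20 ± 0.25 and -0.28 ± 0.22, and Prkar1b 0.23 ± 0.28 and -0.93 ± 0.59, the second from 2 torpid and 3 summer animals.

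Of the catalytic subunits, Prkaca had 4 probes, and its brightest (MA11 probe 4383) had levels of 4.63, 3.79, 3.72, 4.36 and 4.88 in torpid animals, against 3.04, 3.92 and 3.53 in summer animals. Summer animal 2 lay within the torpid range. The difference was 0.77 ± 0.32 (SE, unadjusted p = 0.032, adjusted p = 0.38 by limma). A second Prkaca clone, spotted on MA08 and MA11, gave -0.19 ± 0.53 and 0.55 ± 0.44. On both spots summer animal 3 was the highest of the 8 animals, at 2.77 on MA08 and 3.83 on MA11, while summer animals 1 and 2 lay below the torpid animals on MA11, at 1.48 and 2.01. The summed levels of the nerve and Schwann cell, immune and erythroid marker lists were also highest in summer animal 3. They were 179, 53.0 and 10.6 times the column median, against 126, 50.3 and 10.3 in the next highest animals. The brown adipocyte, muscle and endothelial sums were highest in other animals, at 30.0, 18.3 and 5.39, against 25.8, 11.5 and 3.30 in summer animal 3. The nerve sum was mostly that of a Nefl spot and a Nefm spot on MA08, with levels of 6.78 and 5.64 in this animal. Some other Nefl probes were lowest in it, at 0.29 and -1.96 on MA11 and -0.92 on MA08. The part of these markers in the Prkaca values was not tested. The Prkaca probe on MA07 gave 0.12 ± 0.21, and Prkacb, the beta catalytic subunit, gave 0.22 ± 0.22 on its single probe.

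**Figure D3:**
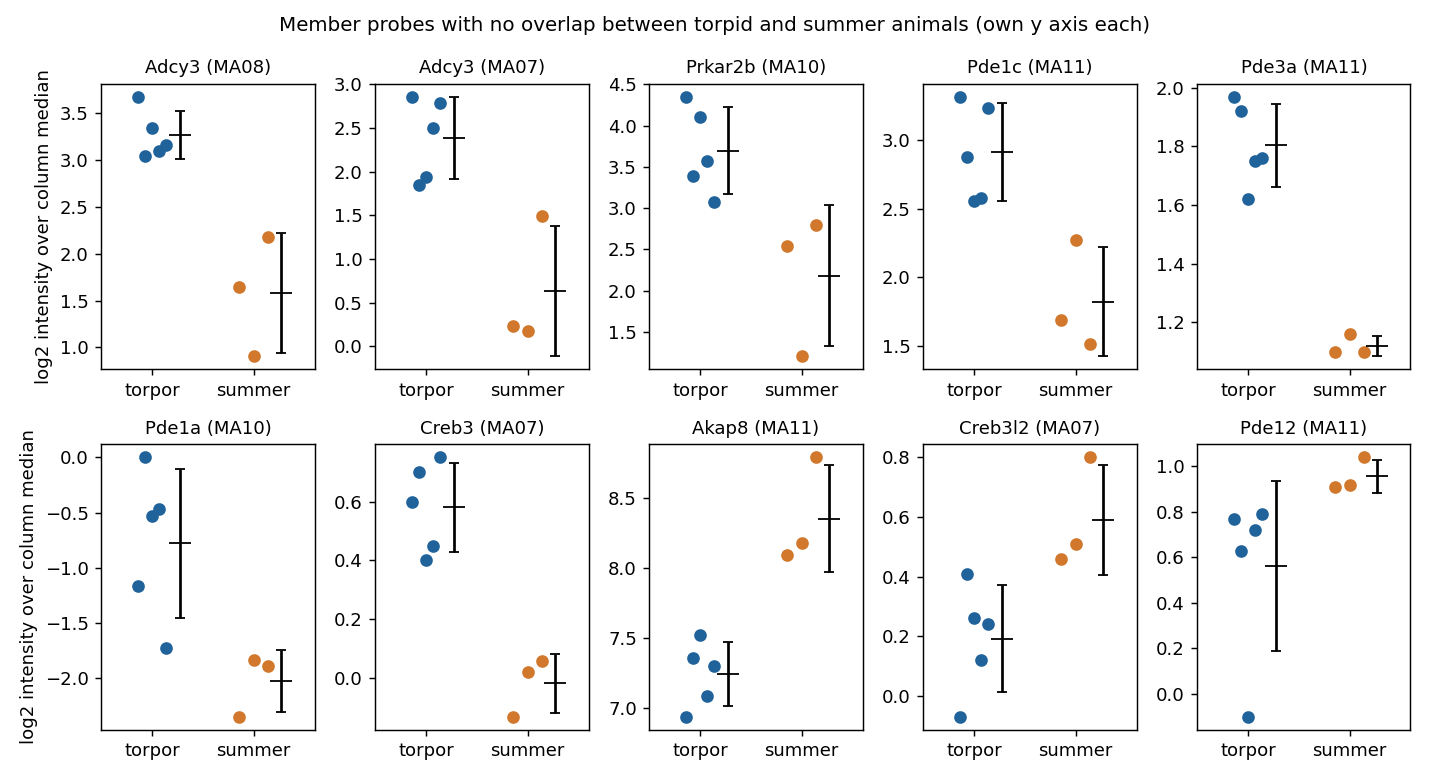
Log2 intensity over the column median (y axis, own scale in each panel) of the 10 member probes in which the torpid animals (blue, left, n = 5) and the summer animals (orange, right, n = 3) do not overlap, with the mean and SD beside the points. In 7 probes the torpid animals are higher, by 1.68, 1.75 and 1.52 in the means of the Adcy3 and Prkar2b probes, and in Akap8, Creb3l2 and Pde12 they are lower.

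Phosphodiesterases that hydrolyse cyclic nucleotides were represented by 29 probes, with a median of 0.08, and by unadjusted p under 0.05 there were 3 higher (10.3%) and 1 lower (3.45%), against 6.39% and 5.18% of all tested probes. By limma 0 passed the adjusted threshold. Pde1c, a calmodulin-stimulated enzyme, had levels of 3.32, 2.88, 2.56, 2.58 and 3.24 in torpid animals, against 1.69, 2.27 and 1.51 in summer animals, on MA11 (probe 412). The groups did not overlap, and the difference was 1.09 ± 0.28 (SE, adjusted p = 0.15 by limma). Its other probe, on MA10, gave -0.10 ± 0.39. With cyclic loess between columns the MA11 difference was 0.59.

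Pde1a, of the same calmodulin-stimulated family, had levels of -1.17, 0.00, -0.53, -0.47 and -1.73 in torpid animals, against -2.35, -1.84 and -1.89 in summer animals, on MA10 (probe 6255). The groups were apart by only 0.11, and the difference was 1.24 ± 0.42 (SE, adjusted p = 0.26 by limma). Pde1b, the remaining gene of this family, pointed both ways: its dim MA11 probe was at -0.90 ± 0.39 (unadjusted p = 0.040, adjusted p = 0.41 by limma) and its MA08 probe at 0.28 ± 0.27.

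The cyclic GMP-inhibited phosphodiesterases, of which Pde3b is the adipocyte form through which insulin restrains lipolysis, gave unlike results. Pde3a on MA11 (probe 6183) had levels of 1.97, 1.92, 1.62, 1.75 and 1.76 in torpid animals, against 1.10, 1.16 and 1.10 in summer animals. The spread within each group was small and the groups were apart by 0.46, with a difference of 0.68 ± 0.21 (SE, adjusted p = 0.23 by limma). A different Pde3a clone on MA07 gave -0.71 ± 0.35, with the opposite sign. Pde3b had 1 dim probe, at 0.07 ± 0.30.

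By limma 0 probes of the cyclic AMP-specific Pde4 genes had an unadjusted p under 0.05. Pde4a gave 0.63 ± 0.36 and -0.36 ± 0.37, Pde4b 0.19 ± 0.24 and -0.24 ± 0.28, and Pde4d 0.73 ± 0.49. The probe with a human PDE4B sequence gave -0.83 ± 0.48. Pde10a gave 4 values between 0.25 and 0.36 from 3 clones, and Pde5a, specific for cyclic GMP, 3 values between -0.34 and -0.05; these genes are named because their probes shared a sign, which was seen first. Pde8a, a high-affinity cyclic AMP enzyme, was at -0.45 ± 0.26 and -0.63 ± 0.37, and Pde8b at 0.12 ± 0.25 and 0.08 ± 0.42. The brightest phosphodiesterase probe, Pde2a on MA08, gave 0.06 ± 0.24, with an interval from -0.47 to 0.59.

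The rule also takes 13 probes of 4 genes whose Pde names do not stand for a cyclic nucleotide-hydrolysing subunit. Pde6g, the inhibitory subunit of the photoreceptor enzyme, gave 0.96 ± 0.30 on MA11 (adjusted p = 0.24 by limma) and 0.05 ± 0.54 on MA10 with the same clone. Pde4dip, a Golgi and centrosome protein that binds Pde4d, gave 1.23 ± 0.47, 0.12 ± 0.37 and 0.08 ± 0.31. The first of these came from a dim MA10 spot on which the groups overlapped (adjusted p = 0.31 by limma). Pde12, a mitochondrial enzyme that trims RNA tails, had 5 probes between -0.39 and 0.55. Its lowest (MA11 probe 1954) had levels of 0.77, 0.63, -0.10, 0.72 and 0.79 in torpid animals, against 0.91, 0.92 and 1.04 in summer animals. The groups did not overlap, with a difference of -0.39 ± 0.26 (SE, adjusted p = 0.59 by limma), and the difference was -0.23 without torpid animal 3. Pde6d, which carries prenylated proteins, had 3 probes between -0.44 and 0.29.

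**Figure D4:**
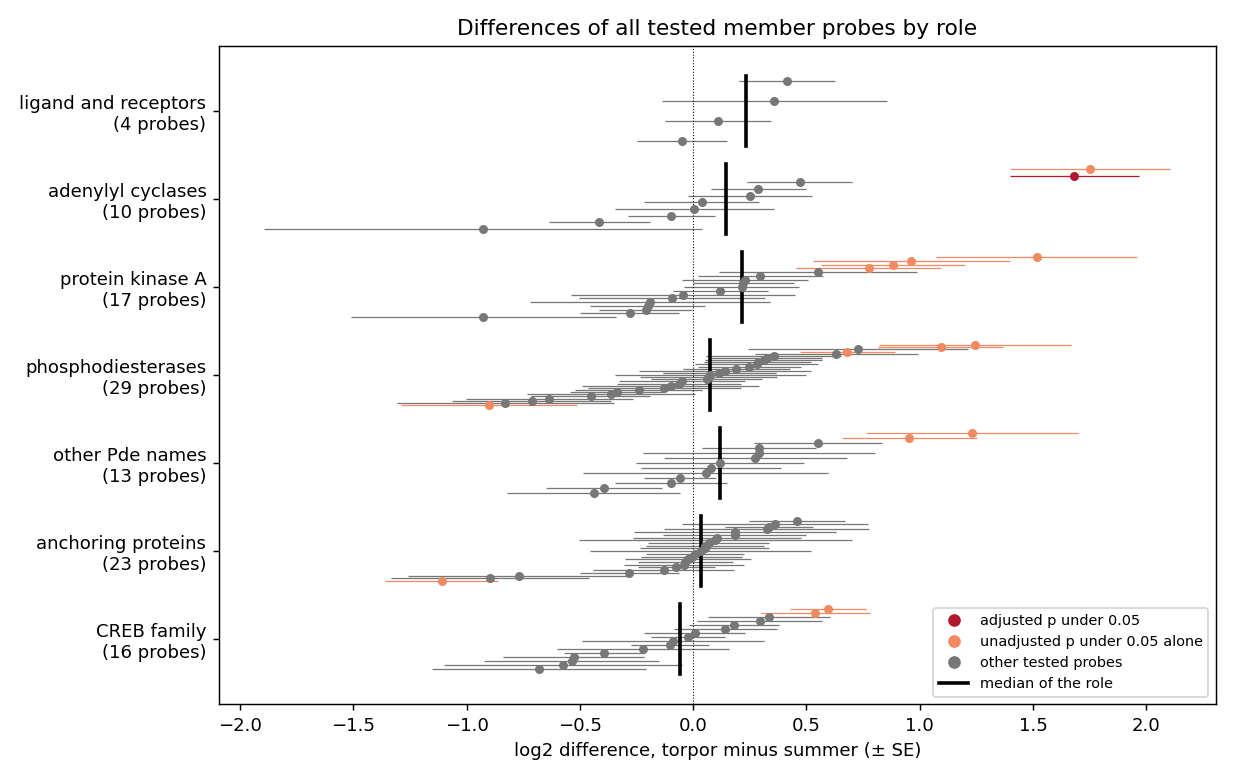
Log2 difference, torpor minus summer, with SE (x axis), of the 112 tested member probes grouped by role (y axis), where red marks an adjusted p under 0.05, orange an unadjusted p under 0.05 alone and the black bar the median of the role. Both Adcy3 probes lie at 1.68 and 1.75, apart from the other cyclases, and the medians run from -0.06 for the CREB family to 0.23 for the ligand and receptors.

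The anchoring proteins, which tether protein kinase A, had a median of 0.03 over 23 probes of 10 genes, and by unadjusted p under 0.05 there were 0 higher and 1 lower (4.35%), against 6.39% and 5.18% of all tested probes. That probe was of Akap8, a nuclear anchoring protein, on MA11 (probe 3023). Its levels were 6.94, 7.36, 7.52, 7.09 and 7.30 in torpid animals, against 8.09, 8.18 and 8.79 in summer animals. Every torpid animal lay below every summer animal, with a difference of -1.11 ± 0.25 (SE, adjusted p = 0.096 by limma). Both MA07 probes of Akap8, of other clones, gave -0.07 ± 0.17 and 0.01 ± 0.22.

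The Akap8 spot was among the brightest of its membrane, at signal percentile 99.6, and bright spots of MA11 were lower in torpor in general. Of 167 tested MA11 probes with a signal percentile above 98, 95.2% were negative, with a median of -0.58, and 2.99% lay at or below the Akap8 value. On the other membranes the median of such probes was 0.36 on MA07, 0.51 on MA08 and -0.33 on MA10. With quantile normalization the Akap8 difference was -0.61 and with cyclic loess -0.49. The 10 probes within 5 index positions of the Akap8 spot had differences from -0.18 to 0.49, and none passed the threshold. The part of spot brightness in the Akap8 difference was not tested.

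The rest of the anchoring proteins were near 0 in most probes. Akap1, which places the kinase on mitochondria, gave 0.46 ± 0.21 on MA07 and 0.11 and 0.05 on the paired spots of another clone. Akap12 gave -0.77 ± 0.49 and -0.90 ± 0.44 on MA10 and MA11 spots of the same clone, both with missing values. Akap13 had 4 probes between -0.28 and 0.18, Akap9 gave -0.13 ± 0.31 and -0.01 ± 0.22, and Akap11 0.33 ± 0.45 and -0.03 ± 0.21. Akap8l, a relative of Akap8, gave 0.33 ± 0.19 and 0.03 ± 0.49.

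The CREB family, the transcription factors and coactivator at the end of the pathway, had a median of -0.06 over 16 probes. Creb1, the classical target of protein kinase A, gave -0.54 ± 0.39 on a very bright MA11 spot and 0.14 ± 0.23 on MA08, and a probe with human CREB1 sequence on MA11 gave -0.53 ± 0.31. The bright Creb1 spot had levels of 5.65, 5.08, 6.72, 6.90 and 6.50 in torpid animals, against 6.91, 6.80 and 6.41 in summer animals. The ranges overlapped, and with quantile normalization the difference was 0.06.

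Crem, which encodes activators and repressors that bind the same element, gave 0.18 ± 0.20, 0.01 ± 0.22 and 0.33 ± 0.27. Crebbp, the coactivator that binds phosphorylated CREB, had 5 probes between -0.68 and 0.54, of which the highest had an unadjusted p of 0.046 and an adjusted p of 0.42 by limma. The human CREBBP probe gave -0.57 ± 0.53.

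Creb3 and Creb3l2 belong to a branch that is held in the endoplasmic reticulum membrane and released by cleavage. On MA07 (probe 5811) Creb3 had levels of 0.60, 0.70, 0.40, 0.45 and 0.75 in torpid animals, against -0.13, 0.02 and 0.06 in summer animals. The groups did not overlap, and the difference was 0.60 ± 0.17 (SE, adjusted p = 0.21 by limma). The other Creb3 probes gave -0.10 ± 0.17 and -0.22 ± 0.38. Creb3l2 had levels of -0.07, 0.41, 0.26, 0.12 and 0.24 in torpid animals, against 0.46, 0.51 and 0.80 in summer animals, with a difference of -0.39 ± 0.18 (SE, adjusted p = 0.43 by limma).

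How far probes of 1 gene matched varied. Of 34 symbols with at least 2 tested probes, 14 had probes of a single sign, 9 positive and 5 negative. These include Akap12 and Pde6g, whose 2 probes are of 1 clone. The count that random signs would give is not given here. Where the same clone was spotted 2 times, which happened for 9 members, 7 pairs shared a sign and the gap between the spots had a median of 0.28, about the size of 1 standard error. The closest pair was Pde10a (0.32 and 0.28) and the widest was Pde6g, with a gap of 0.90.

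**Figure D5:**
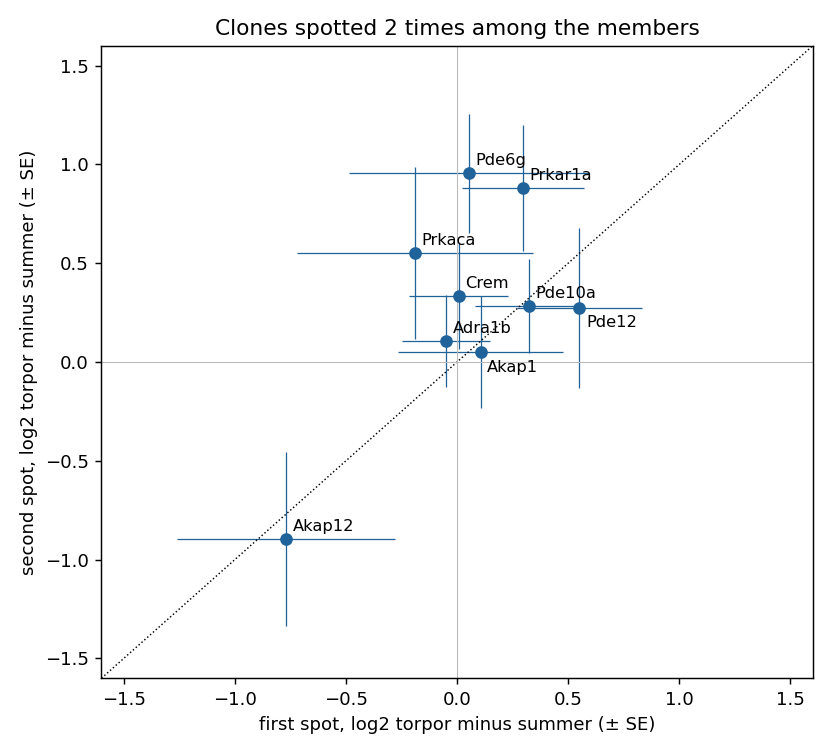
Log2 difference, torpor minus summer, of the second spot (y axis) against the first spot (x axis) for the 9 member clones spotted 2 times, with SE bars and a dotted line of equality. Of the 9 pairs 7 share a sign, Akap12 is negative on both spots, and Pde6g, Prkaca and Prkar1a lie farthest from the line.

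Genes around the pathway that the symbol rule does not take were listed by name, 62 in all, of which 47 had 121 tested probes. By limma 1 probe passed the adjusted threshold upward and 0 downward, where 0.309% of all tested probes passed. By unadjusted p under 0.05 there were 20 higher (16.5%) and 9 lower (7.44%), against 6.39% and 5.18% of all tested probes. The called probe was of Ppp1cb, a catalytic subunit of protein phosphatase 1, which removes phosphates placed by protein kinase A among others. On MA11 (probe 4991) its levels were 4.64, 4.58, 4.62, 5.58 and 3.82 in torpid animals, against 2.71, 2.59 and 2.34 in summer animals. The groups were apart by 1.10, and the difference was 2.10 ± 0.33 (SE, adjusted p = 0.026 by limma). All 4 Ppp1cb probes were positive, between 1.31 and 2.10, and both probes of Ppp1cc, another catalytic subunit, gave 1.27 and 1.33. The Ppp1cb call was lost without summer animal 2 or 3 or without torpid animal 1, 2 or 3 (adjusted p from 0.051 to 0.078 by limma). Of the 19 phosphatase probes on the list 7 were higher and 0 lower by the same measure. By the same measure 2 of 6 probes of the exchange factor and Rap group were higher and 0 lower, both of them of Rap1b, and 7 of 46 G protein subunit probes were higher and 6 lower, while 0 of 5 probes of the lipolysis genes Lipe, Pnpla2 and Abhd5 were either.

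The summed level of brown adipocyte markers overlapped between the groups. For 8 of the 13 listed genes, Cidea, Ppargc1a, Dio2, Prdm16, Elovl3, Pparg, Cd36 and Lpl, there were 13 tested probes, of which by limma 0 passed the adjusted threshold and 0 had an unadjusted p under 0.05, and the other listed genes are not analysed here. In 1 of these 13 probes, of Cd36 on MA11, every torpid animal lay above every summer animal (0.75 to 1.22 against 0.60 to 0.72). Over all tested probes this held for 4.37%. The summed level was 22.4 to 25.9 times the column median in torpid animals and 20.8 to 30.0 in summer animals. In this bulk tissue fewer cells of a type and less RNA per cell cannot be told apart. The summed levels of muscle markers (5 of 12 genes, 9.21 to 18.3 in torpor against 9.92 to 11.5 in summer), erythroid markers (2 of 4, 3.23 to 10.3 against 5.38 to 10.6), immune markers (7 of 10, 39.8 to 50.3 against 28.7 to 53.0), endothelial markers (4 of 6, 3.12 to 5.39 against 2.97 to 4.75) and nerve markers (6 of 9, 102 to 126 against 51.7 to 179) also overlapped between the groups. Of 16 immune probes 2 (12.5%) were higher and 4 (25%) lower by unadjusted p under 0.05, against 6.39% and 5.18% of all tested probes. Every torpid animal lay below every summer animal in 2, of Lcp1 on MA07 and H2-Eb1 on MA08, against 4.13% of all tested probes. Both higher immune probes were also of Lcp1. Of 7 muscle probes 1 (14.3%) was higher and 0 lower by unadjusted p under 0.05, against 6.39% and 5.18% of all tested probes. It was of Actn3 on MA11, the muscle probe with the highest signal percentile, at 0.97 ± 0.37. The other Actn3 probe gave -0.53 ± 0.24, and the median of the muscle probes was -0.38. The part of these markers in the member results was not tested.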

How the data were processed

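Spot intensity values were deposited by the authors as linear numbers already divided by the column median, as the values show: with empty cells ranked lowest, each column's median is 1. How images were read and background treated, and why some cells are empty, is not given in the sources used here. Of the 44 columns, 24 are of torpid and 20 of summer animals.

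Values were taken to log2, duplicates of a split RNA averaged, and a separate two-sided model fitted per membrane (limma 3.58.1, R 4.3.3, eBayes with its default prior, 5 torpid against 3 summer animals). A probe needed 2 measured animals per group. Benjamini-Hochberg adjustment ran over the 37848 tested probes. The fit was tested on simulated data. Signal percentile is a probe's rank within a column, as a percentage of the probes of the membrane, averaged over the columns. The number of arrays limits the precision.

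Symbols came from the platform annotation and name mouse genes, or human ones for the 3 member probes in capitals. Of the 48 genes 46 match a squirrel RefSeq symbol, and Akap17b and Akap2 do not. A further 10 probes with a member symbol among several symbols were not used, and no coordinates are given.

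The members, gene lists and tests were chosen with earlier results of these data known. Named probes were those past adjusted p 0.05, up to 10 per direction with the smallest p among probes with no overlap between the groups, and a fixed set of 40 genes, each by its brightest probe. Other members with several probes, or with an unadjusted p under 0.05, were named after their values were seen. For the genes around the pathway, the probes past the threshold and the smallest p were named.

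Alternatives covered scaling, a floor at the 10th percentile, leaving out probes under the 25th percentile, the variance model, animal weights, duplicates, a replicate block, adjustment within each membrane and each animal left out. Leaving out MA10, MA11 or the human-sequence probes was added after seeing the data. Same-numbered torpid and summer animals did not deviate together (correlations from -0.063 to 0.052), and different-numbered ones ran from -0.151 to 0.155. These values show no pairing by number, but so few animals cannot exclude one.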

Additional observations from a re-analysis of the deposited data

Results flagged for a closer look

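Among the 34 named member probes, 3 had a torpid animal far from the other 4, where chance gives about 1 in 20 groups. Pde12 on MA11 (probe 1954) was at -0.102 in torpid animal 3, against 0.630 to 0.791 in the other torpid animals. Prkacb on MA11 was at 1.20 in torpid animal 3, against 1.50 to 1.58 in the other 4. Prkar2a on MA11 was at 0.199 in torpid animal 2, against 0.842 to 1.05 in the others.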

How the results depend on the processing

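The number of animals and the spread of the duplicates limit these results, and signal over background is not known. For 21 of the 34 named member probes the direction was the same under every alternative run. They include the probes of Adcy3, Prkar2b, Pde1c, Pde3a, Pde1a, Creb3 and Akap8 that were named for groups without overlap. Without overlap the direction stays the same whichever single animal is left out, so those fits do not test it. The other alternatives used the same animals. The cause of the changes below was not tested.

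The count of member probes past the adjusted threshold, 1, was 0 with cyclic loess, the floor at the 10th percentile, the second duplicates alone and the replicate block, and 2 with columns kept and the animal as a random block. With 1 animal left out it was 0 to 2. The Adcy3 MA08 value was 1.40 with cyclic loess (adjusted p = 0.13 by limma), 1.68 with the floor (0.060), 1.67 with the second duplicates (0.15) and 1.77 with the replicate block (0.14). With the replicate block the unadjusted p was under 0.05 for 11 higher and 3 lower member probes. Over the alternatives the count of higher probes, 13, was 8 to 15, the 8 being without MA11. The count of lower probes, 2, was 0 with cyclic loess and without MA11, 1 with quantile normalization, 4 with the floor and with the random block, 6 with the first duplicates, and 2 to 5 with 1 animal left out. Probes with all torpid animals above numbered 7, and 7 to 14 with 1 animal left out. Those with all torpid animals below numbered 3, with 5 under the floor or with first duplicates alone, 1 without MA11, and 3 to 8 with 1 animal left out. Smaller groups separate more easily for any probe, and the shares of all tested probes under these alternatives are not given here. The changed counts are therefore not read as a result about the members. The member median, 0.068, was 0.0054 with the floor, 0.13 without dim probes and 0.11 with the second duplicates, and 0.028 to 0.11 with 1 animal left out.

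Among the other pathway genes the 1 call became 0 with quantile normalization, cyclic loess or the replicate block, 2 without dim probes or with the intensity trend and robust prior, 3 with the random block, and 0 to 4 with 1 animal left out. Over all probes cyclic loess called 63 in place of 117, and 73.0% of these were higher in torpor in place of 83.8%. The shares were 63.2% of 38 with the second duplicates and 96.3% of 162 without summer animal 3. Other scalings moved the median of all probes by less than 0.1.

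Of the named probes 13, all uncalled, changed sign under some alternative, the largest main value among them being -0.54, of Creb1. Quantile normalization gave 0.059 for Creb1 and -0.092 for Adcy6, and cyclic loess gave -0.014 for Prkacb and -0.12 for Adcy6. Array weights gave -0.037 for Adcy6, 0.00070 for Adra1b and -0.038 for Crem. The first duplicates gave -0.089 for Adcy6, 0.068 for Adra1b, -0.11 for Akap13, -0.20 for Crem and -0.14 for Pde3b, and the second gave -0.016 for Akap11. The replicate block gave -0.17 for Pde8b, 0.023 for Adra1b and 0.078 for Adcy9, the random block -0.024 for Crem and the floor -0.045 for Pde3b. With 1 animal left out the ranges were -0.015 to 0.59 for Prkar1a, -0.085 to 0.62 for Crebbp, -0.020 to 0.22 for Pde8b, -0.28 to 0.26 for Adcy6, -0.12 to 0.041 for Adra1b, -0.14 to 0.22 for Akap13, -0.10 to 0.11 for Crem, -0.062 to 0.93 for Akap11, -0.48 to 0.067 for Akap9 and -0.12 to 0.28 for Pde3b.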

Other observations

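Gnai2, an inhibitory G protein subunit that restrains adenylyl cyclase, was negative on all 5 of its probes, from -1.19 to -0.23, and 3 had an unadjusted p under 0.05. Gnao1, a related subunit, gave 4 probes from -0.89 to 0.90, with 2 on MA11 positive. Rgs2, a regulator of G protein signalling, gave 1.84 on 1 probe and negative values on the other 3. None of these passed the adjusted threshold by limma, and the genes were picked after their values were seen.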
